A study of Mus musculus with 8 samples.

Results

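Formyl peptide, complement, leukotriene and chemerin receptors, the chemoattractant receptors of myeloid cells that do not bind chemokines, were read out in splenic Ly6Chigh monocytes. The group was chosen by symbol as Fpr1, Fpr2, C5ar1, C5ar2, C3ar1, Ltb4r1 and Cmklr1, and each of these 7 names matched 1 of the 56748 rows of the count table. The libraries came from sorted Ly6Chigh cells of the spleen, which are classical, inflammatory monocytes, 7 days after an abdominal aortic aneurysm was induced. There were 4 wild-type (WT) and 4 Olfr2 knockout (KO) libraries, and every library of either genotype came from an aneurysm-induced animal, so that no comparison with an uninduced state was possible. Olfr2 is an olfactory receptor gene that the study links to the recruitment of monocytes. The labels name neither strain and age nor the induction method and the KO allele. They also do not say whether the libraries are separate animals, and a p-value here reflects the spread among these libraries, which may be technical.

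These receptors are G protein-coupled receptors that steer phagocytes toward sites of infection and injury. Formyl peptide receptors bind peptides that start with formyl-methionine, which bacteria and damaged mitochondria release. C5ar1 and C3ar1 bind the anaphylatoxins split from complement proteins C5 and C3, Ltb4r1 binds the lipid leukotriene B4, and Cmklr1 binds chemerin. Most of them signal through inhibitory G proteins, whose released beta-gamma subunits turn on phosphoinositide 3-kinase gamma and guide Rac-driven movement. C5ar2 binds C5a too, but does not couple to G proteins in the usual way.

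The genes lie at 5 places in the genome (GRCm38, GENCODE M21). Fpr1 (ENSMUSG00000045551; chromosome 17, 17876471 to 17883940, minus strand) and Fpr2 (ENSMUSG00000052270; chromosome 17, 17887824 to 17893952, plus strand) are divergent neighbours whose starts are 3884 bases apart. C5ar1 (ENSMUSG00000049130; chromosome 7, 16246743 to 16259540) and C5ar2 (ENSMUSG00000074361; chromosome 7, 16234585 to 16244154) follow each other on the minus strand. C3ar1 (ENSMUSG00000040552) spans 122847138 to 122856161 on chromosome 6, Ltb4r1 (ENSMUSG00000046908) spans 55765962 to 55768494 on chromosome 14, and Cmklr1 (ENSMUSG00000042190) spans 113612354 to 113650426 on chromosome 5.

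The 250 bases before the start of Fpr1, Fpr2 and Ltb4r1 are shown because the first 2 are divergent neighbours whose counts tracked each other across libraries, while Ltb4r1, as abundant as Fpr2, did not follow them. The sequences are from RefSeq (GRCm38.p6), read 5′ to 3′ on the strand of the gene; all 7 receptors had an entry there. Capitals mark GAGGAA, a sequence bound by the myeloid factor PU.1, on either strand (TTCCTC on the strand shown).

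Fpr1 (chr17:17883940-17884189, minus strand): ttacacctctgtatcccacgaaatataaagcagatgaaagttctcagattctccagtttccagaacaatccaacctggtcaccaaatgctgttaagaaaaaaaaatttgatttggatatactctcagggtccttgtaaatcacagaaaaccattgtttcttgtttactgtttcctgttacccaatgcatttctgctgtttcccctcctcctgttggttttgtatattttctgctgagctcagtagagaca

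Fpr2 (chr17:17887574-17887823, plus strand): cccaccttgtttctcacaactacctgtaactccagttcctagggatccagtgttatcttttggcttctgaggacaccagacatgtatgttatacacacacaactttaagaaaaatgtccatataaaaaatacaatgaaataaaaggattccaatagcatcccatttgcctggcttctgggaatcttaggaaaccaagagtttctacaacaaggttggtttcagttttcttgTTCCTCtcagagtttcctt

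Ltb4r1 (chr14:55765712-55765961, plus strand): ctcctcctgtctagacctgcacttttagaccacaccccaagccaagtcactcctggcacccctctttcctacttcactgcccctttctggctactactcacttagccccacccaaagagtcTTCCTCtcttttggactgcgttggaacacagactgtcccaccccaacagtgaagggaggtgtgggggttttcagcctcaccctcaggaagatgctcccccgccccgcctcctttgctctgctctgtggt

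The motif GAGGAA occurred once in the Fpr2 window and once in the Ltb4r1 window, and not in that of Fpr1. Of 32851 mouse promoter windows of 250 bases, 23.3% held it on at least 1 strand. The letters TATAAA occurred in the windows of Fpr1 and Fpr2, 227 and 130 bases before the start, and in 12.4% of all windows, but not in that of Ltb4r1. Both formyl peptide receptor windows were poor in G and C, with a GC content of 38.4% for Fpr1 and 38.8% for Fpr2, against 56.8% for Ltb4r1. Among windows not shown, that of C3ar1, whose counts did not follow Fpr1 and Fpr2, held TATAAA 235 bases before the start, at 45.6% GC. Those of C5ar1, whose counts did follow them, and of the scarce Cmklr1, which did so less clearly, held no TATAAA, at 52.8% and 50.4% GC. Whether these letters bear on the counts was not tested. A match is a match of letters only.

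Total counts lay between 16111725 and 21728794 per library. Olfr2, the targeted gene, had 0 counts in all 8 libraries, so that it checks no label. Classical monocyte markers were abundant in all 8 libraries: Lyz2 averaged 108000 ± 4610 CPM (SD, n = 4) in WT and 113000 ± 5850 in KO, where CPM is the count scaled to the library total, and Ly6c2 averaged 4700 ± 499 and 5040 ± 573 CPM. They were not all alike in the genotypes: every KO library was above WT in Chil3 (11000 ± 2560 against 27400 ± 11200 CPM, highest in KO 1 and KO 2; edgeR adjusted p = 0.0786) and below WT in Fn1 (120 ± 31.4 against 53.3 ± 14.4 CPM; edgeR adjusted p = 0.0583), and 0 of 10 were called (edgeR; 2 had an unadjusted p under 0.05). Markers of T cells, NK cells and of eosinophils, basophils and mast cells summed to at most 1.20, 1.05 and 0.327 CPM in any library. Those of macrophages summed to 48.4 to 104 CPM and those of B cells to 165 to 360 CPM, the latter carried by Ighm, with Cd79a at most 0.420 CPM. The plasmacytoid dendritic cell list was carried by Bst2, which interferon also induces (207 ± 11.8 CPM in WT, 121 ± 24.1 in KO; edgeR adjusted p = 0.0377), while Siglech and Klk1 were at 0 in all 8 libraries. Nonclassical monocyte markers summed to 523 to 690 CPM in WT and 355 to 591 CPM in KO. Of these, 10 of 10 had a negative log2 change, 5 had an unadjusted p under 0.05 and 1, Pou2f2, was called (edgeR adjusted p = 0.0170). Among all tested genes, 20.9% had an unadjusted p under 0.05 and 1.06% were called (edgeR). Numbers in the column names are above 1600 for replicates 1 and 2 of both genotypes (1600 series) and above 1700 for replicates 3 and 4 (1700 series); what they stand for is not stated. KO 1 and KO 2 stood apart in several neutrophil genes (S100a8 at 770 and 1460 CPM, at most 74.9 elsewhere). A filter on low counts left 11222 genes, among them 6 of the 7 receptors, and C5ar2 did not pass it.

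The first question was how strongly each receptor was transcribed. Per kilobase of merged exon, Fpr2 had the highest mean level over the 8 libraries, 79.2 ± 19.8 CPM per kb (SD, n = 8), followed by Ltb4r1 with 75.3 ± 17.5. These neighbours in the order were not separated, since Fpr2 was above Ltb4r1 in 6 of 8 libraries and their ranges overlapped (51.2 to 107.7 against 49.3 to 106.6 CPM per kb). Fpr2 and Ltb4r1 stood above 92.0% and 91.6% of the tested genes.

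Next came Fpr1 at 23.5 ± 9.81 CPM per kb (SD, n = 8), and its highest library, at 39.2, stayed below the lowest library of Ltb4r1. C5ar1 followed at 9.29 ± 3.34 CPM per kb and was below Fpr1 in 8 of 8 libraries, although the ranges met (5.41 to 13.8 against 13.1 to 39.2). After a wide gap came C3ar1 at 0.883 ± 0.403 and Cmklr1 at 0.389 ± 0.146 CPM per kb, with C3ar1 above Cmklr1 in 7 of 8 libraries. C5ar2 was lowest, at 0.112 ± 0.0763 CPM per kb. Of the summed level of the 7 genes, Fpr2 and Ltb4r1 held 42.0% and 39.9%, Fpr1 12.4%, C5ar1 4.92%, and the other 3 receptors less than 1% each.

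**Figure D1:**
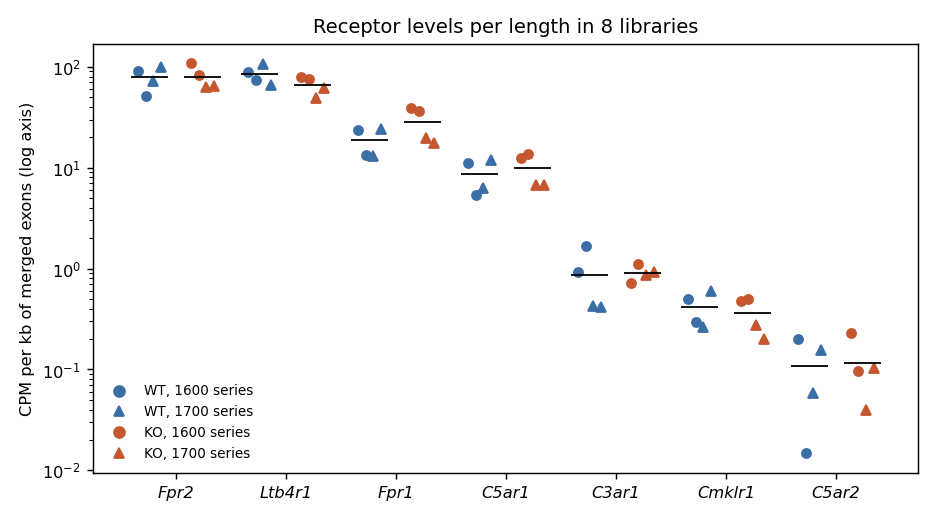
Level of each receptor in CPM per kilobase of merged exon (log axis), 1 point per library, with WT in blue and KO in orange, circles for the 1600 and triangles for the 1700 series, and a bar at the mean of each genotype (n = 4). Fpr2 and Ltb4r1 lie highest and overlap, C5ar2 is lowest, and for every receptor the WT and KO points overlap.

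Fpr1, the high-affinity formyl peptide receptor, had 31.4, 17.85, 17.4 and 32.0 CPM in WT 1 to 4, against 51.9, 48.5, 26.2 and 23.4 CPM for KO 1 to 4. Fewer cells of a type and less RNA per cell cannot be told apart in such bulk values. KO 1 and KO 2 lay above every WT library, while KO 3 and KO 4 fell inside the WT range. The log2 change, KO against WT, was 0.69 ± 0.33 (SE, edgeR adjusted p = 0.268), the largest of the 6 tested receptors. An exact two-sided permutation test of the CPM gave p = 0.20 (n = 4 each), and such a test cannot go below 0.0286.

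Fpr2, which also binds serum amyloid A and annexin A1, had 118, 66.4, 93.1 and 130 CPM in WT 1 to 4, against 140, 108, 82.4 and 82.6 CPM for KO 1 to 4. The highest library was KO 1 and the lowest WT 2, and the others of both genotypes lay mixed between them. Its log2 change was 0.09 ± 0.24 (SE, edgeR adjusted p = 0.858). Counts of Fpr2 could in principle take up reads of its close paralog Fpr3, whose longest annotated transcript is 87.4% identical over 1131 aligned positions. Of the 50-base windows of the Fpr2 transcript, 7.10% occur in Fpr3, and Fpr3 itself had 0 counts in each of the 8 libraries, as had Fpr-rs3, Fpr-rs4, Fpr-rs6 and Fpr-rs7. With 3 counts as the limit for a gene at 0, a level of 0.138 to 0.186 CPM could have been missed by counting error alone. Fpr1 and Fpr2 are 68.3% identical over 1017 positions and share 1 such window.

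C5ar1, the signalling receptor for C5a, had 28.6, 13.9, 16.1 and 30.3 CPM in WT 1 to 4, against 32.2, 35.4, 17.2 and 17.1 CPM for KO 1 to 4. In each genotype 2 libraries were at 28.6 CPM or above and 2 at 17.2 CPM or below, and the genotypes overlapped. The log2 change was 0.29 ± 0.35 (SE, edgeR adjusted p = 0.681). C5ar2, the second C5a receptor, had 13, 1, 4 and 9 counts in WT 1 to 4, against 14, 6, 3 and 8 for KO 1 to 4. Its means of 0.382 ± 0.303 (WT) and 0.416 ± 0.282 CPM (KO; SD, n = 4 each) were not detectably different at this depth (exact two-sided permutation p = 0.886).

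C3ar1, the C3a receptor, had 3.98, 7.19, 1.84 and 1.80 CPM in WT 1 to 4, against 3.07, 4.83, 3.69 and 4.00 CPM for KO 1 to 4. WT libraries were spread more widely than KO libraries, with an SD of 2.54 against 0.731 CPM, and held both the highest and the lowest value; this difference in spread was not tested. Its log2 change was 0.17 ± 0.38 (SE, edgeR adjusted p = 0.832). Ltb4r1, the high-affinity leukotriene B4 receptor, had 124.5, 103, 149 and 92.3 CPM in WT 1 to 4, against 111, 105, 68.7 and 86.25 CPM for KO 1 to 4. KO 3 and KO 4 lay below every WT library, and KO 1 and KO 2 within the WT range. The log2 change was -0.26 ± 0.19 (SE, edgeR adjusted p = 0.461). Cmklr1, the chemerin receptor, had between 15 and 33 counts per library. Its levels were 1.69, 0.998, 0.895 and 2.05 CPM in WT 1 to 4, against 1.62, 1.70, 0.947 and 0.690 CPM for KO 1 to 4, with overlap (log2 change -0.10 ± 0.40, edgeR adjusted p = 0.905).

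Of the 6 tested receptors, 0 passed the threshold of 0.05 on edgeR's adjusted p, and 0 had an unadjusted p under it. Among all 11222 tested genes 1.06% were called, 0.223% higher and 0.838% lower in KO, and 20.9% had an unadjusted p under 0.05. A count of 0 among 6 therefore lies near the background of calls. DESeq2 and limma-voom also called 0 of the 6, where DESeq2 called 6.99% of all genes. No receptor had WT and KO libraries that did not overlap in CPM, against 11.5% of all tested genes (2.81% with KO higher, 8.66% with KO lower). The median log2 change was 0.13 for the 6 receptors and -0.004 for all tested genes.

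The receptor differences were not alike in the 2 column-number series. In the 1600 series (2 WT and 2 KO libraries) the log2 change was 1.18 ± 0.26 for Fpr1 (SE, edgeR adjusted p = 0.0702), 0.58 ± 0.28 for Fpr2 and 0.83 ± 0.32 for C5ar1. In the 1700 series these values were 0.00 ± 0.27, -0.45 ± 0.18 and -0.44 ± 0.28. Ltb4r1 was at 0.08 ± 0.15 in the 1600 and -0.67 ± 0.26 in the 1700 series, and Cmklr1 at 0.47 ± 0.46 and -0.84 ± 0.52. C3ar1 went the other way, with -0.34 ± 0.38 in the 1600 and 1.06 ± 0.30 in the 1700 series. No receptor passed within either series, where edgeR called 0.873% and 1.16% of tested genes. At an unadjusted p under 0.05 there were 2 of 7 receptors in the 1600 series (Fpr1 and C5ar1) and 3 of 6 in the 1700 series (Fpr2, C3ar1 and Ltb4r1), against 18.8% and 22.2% of all genes tested there.

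The difference of the genotype effect between the series was tested directly as an interaction. For 1700 minus 1600 it was -1.20 ± 0.43 for Fpr1, -1.04 ± 0.37 for Fpr2, -1.29 ± 0.51 for C5ar1, -0.75 ± 0.32 for Ltb4r1, -1.33 ± 0.71 for Cmklr1 and 1.37 ± 0.51 for C3ar1 (log2, SE). None passed after adjustment (edgeR adjusted p = 0.207 to 0.386), where 0.784% of all genes were called. The unadjusted p was under 0.05 for 5 of the 6, all but Cmklr1, against 16.1% of all genes. In DESeq2, Fpr2 (adjusted p = 0.0492) and Fpr1 (adjusted p = 0.0495) were just under the threshold, where 3.84% of all genes were called.

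**Figure D2:**
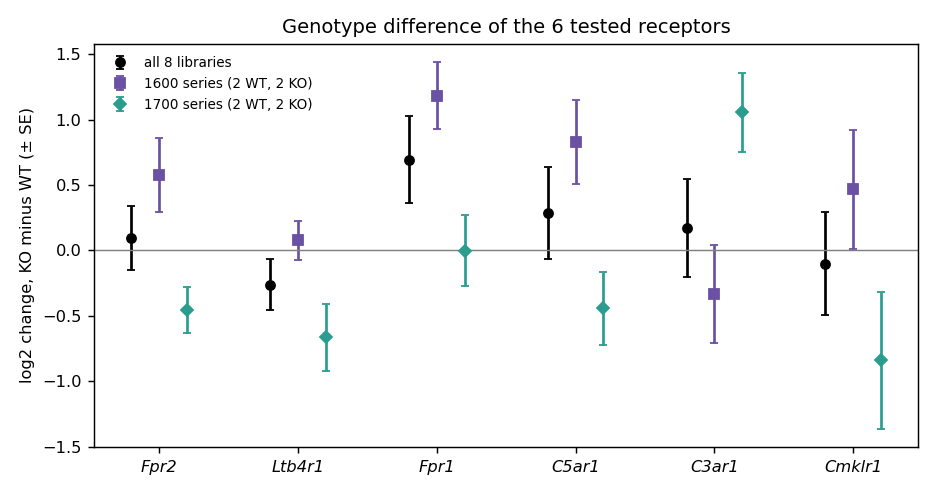
log2 change of the 6 tested receptors, KO minus WT, in all 8 libraries (black) and within each column-number series (purple and green, 2 WT and 2 KO libraries each), with bars of 1 SE from edgeR. For 5 receptors the 1600 value lies above the 1700 value, and for C3ar1 it lies below.

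Fpr1, Fpr2 and C5ar1 also varied together across libraries of both genotypes. On log2 CPM over the 8 libraries, Fpr1 and C5ar1 had Pearson's r = 0.93 (exact permutation p = 9.92e-05, adjusted p = 0.00149 over 15 pairs) and Spearman's rho = 0.95 (exact permutation p = 0.00114, adjusted p = 0.0171). Without the 2 libraries farthest from the median of Fpr1, r was 0.89. Fpr2 and C5ar1 had r = 0.91 (exact permutation p = 0.00298, adjusted p = 0.0223) and rho = 0.86 (exact permutation p = 0.0107, adjusted p = 0.0536), with r = 0.87 without 2 libraries. Fpr1 and Fpr2 had r = 0.81 (exact permutation p = 0.0156, adjusted p = 0.0494) and rho = 0.88 (exact permutation p = 0.00724, adjusted p = 0.0536), with r = 0.76 without 2 libraries. The scarce Cmklr1 followed the same libraries, with r = 0.90 to C5ar1 (exact permutation p = 0.0160, adjusted p = 0.0494) and rho = 0.76 (exact permutation p = 0.0368, adjusted p = 0.110), and r = 0.93 without 2 libraries. Its r was 0.82 to Fpr2 (exact permutation adjusted p = 0.0494) and 0.75 to Fpr1 (exact permutation adjusted p = 0.0962), the latter not passing. Neither rho passed (exact permutation adjusted p = 0.115 and 0.0817). Ltb4r1 and C3ar1 did not follow these genes: their r to any other receptor lay between -0.52 and 0.36. Each series and each genotype holds 4 libraries, too few for a value of its own.

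Within each library the counts of 2 receptors can be set against each other, a quantity that does not depend on the scaling of libraries and was chosen after the counts were seen. The ratio of Fpr1 to Fpr2 counts was 0.265, 0.269, 0.187 and 0.245 for WT 1 to 4, against 0.372, 0.448, 0.318 and 0.284 for KO 1 to 4. Every KO library therefore lay above every WT library, KO 3 and KO 4 included. The mean difference of log2 ratios was 0.55 ± 0.19 (SE), a ratio 1.46-fold higher in KO (exact permutation p = 0.0286, two-sided and the lowest that 4 against 4 can give; adjusted p = 0.107 over 15 pairs). The ratio of Fpr1 to C5ar1 was 1.10, 1.28, 1.08 and 1.06 for WT 1 to 4, against 1.61, 1.37, 1.52 and 1.37 for KO 1 to 4, again without overlap and with the same p-values. Fpr1 to Cmklr1 and C5ar1 to Cmklr1 were the other 2 of the 15 pairs without overlap, each higher in KO, and Cmklr1 had at most 33 counts in a library. The 15 pairs are built from 6 genes and share them, so that these are not separate results. How often the ratios of other genes do not overlap was not computed. Of single tested genes, 11.5% did not overlap in CPM. After adjustment no pair passed.

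The relation of Fpr1 to Fpr2 kept its sign in every fit, where Fpr2 alone turned and Fpr1 alone went no lower than -0.002. Fpr1 with C5ar1, Ltb4r1 and Cmklr1, and C5ar1 with Ltb4r1 and Cmklr1, also kept their sign in every fit. All fits drew on the same libraries. The log2 change of Fpr1 minus that of Fpr2 was 0.60 over all libraries, 0.60 in the 1600 series and 0.45 in the 1700 series. With offsets that take up each library's trend with transcript length and GC content it was 0.63. Over 22 fits it lay between 0.32 and 0.68, and the lowest value is that without KO 1 and KO 2, the libraries highest in summed neutrophil markers. For Fpr1 minus C5ar1 it was 0.41 over all libraries, 0.36 and 0.44 in the series and 0.30 with the offsets.

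**Figure D3:**
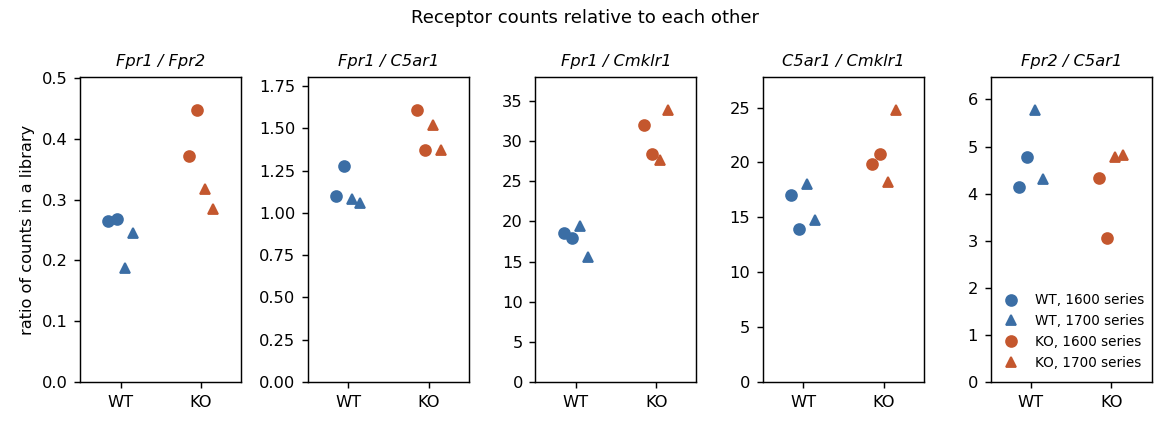
Ratio of the counts of 2 receptors in the same library (linear axes from 0), WT in blue and KO in orange, circles for the 1600 and triangles for the 1700 series. Fpr1 relative to Fpr2, C5ar1 and Cmklr1, and C5ar1 relative to Cmklr1, are higher in all 4 KO libraries than in any WT library, while Fpr2 relative to C5ar1 overlaps.

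Neutrophils carry Fpr1, Fpr2, C5ar1 and Ltb4r1 too, so that neutrophil genes were read beside them. The 14 neutrophil markers summed to 604 to 1060 CPM in WT and to 2530, 3610, 1110 and 942 CPM in KO 1 to 4. Most of the WT sum was Mmp8 (390 ± 139 CPM in WT, 649 ± 103 in KO, with overlap) and Cd177. Cd177 ran the other way from the sum, at 319 to 419 CPM in WT and 216, 192, 286 and 318 CPM in KO 1 to 4, without overlap (log2 change -0.46, edgeR adjusted p = 0.109). Csf3r did not follow the sum either, at 20.2 to 53.0 CPM in WT and 28.4, 29.4, 46.1 and 41.9 CPM in KO 1 to 4. Its log2 change was 0.07 (edgeR adjusted p = 0.898). S100a8, which encodes a calprotectin chain, stood at 770 (KO 1), 1460 (KO 2), 74.9 (KO 3) and 39.2 CPM (KO 4), against 23.7 to 48.6 CPM in WT. S100a9, the other chain, was at 463, 729, 32.1 and 20.2 CPM in KO 1 to 4. Every KO library was thus above the WT maximum of 17.4 CPM, KO 3 and KO 4 by far less. Lcn2 was at 194 (KO 1) and 315 CPM (KO 2), against a WT maximum of 45.9 CPM. Ngp, a granule protein gene, was at 104 and 80.2 CPM in the same libraries, against a WT maximum of 1.63 CPM. Ly6g, which defines mature neutrophils, had 1.04, 0.852, 0.142 and 0.184 CPM in KO 1 to 4 and at most 0.124 CPM in WT, so that every KO library was above WT at a low level. Retnlg had 2.67 (KO 1) and 1.53 CPM (KO 2) with a WT maximum of 0.0526 CPM, Cxcr2 had 1.39 and 0.795 CPM with a WT maximum of 0.621 CPM, and Stfa2l1 had 0 counts in all 8 libraries. Of the 14 markers, 6 were tested and 1 was at 0 in every library. Of the 6, 0 were called and 4 had an unadjusted p under 0.05 (edgeR), against 1.06% and 20.9% of all tested genes.

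The 2 libraries highest in the neutrophil marker sum were the 2 highest in Fpr1 and C5ar1, and the part of neutrophils in the receptor values was not tested. Over 12 relations computed after the values were seen, Fpr1 and the marker sum had r = 0.90 (exact permutation p = 0.00479, adjusted p = 0.0229) and rho = 0.79 (exact permutation p = 0.0279, adjusted p = 0.110), and r = 0.61 without the 2 libraries farthest from the median of the sum. For C5ar1, r was 0.74 (exact permutation p = 0.0225, adjusted p = 0.0449) and rho 0.76 (exact permutation p = 0.0368, adjusted p = 0.110), and r was 0.26 without those 2 libraries, so that the relation rests on them. For Fpr2, r was 0.51 (exact permutation p = 0.206, adjusted p = 0.309) and rho 0.43 (exact permutation p = 0.299, adjusted p = 0.399), and r was -0.03 without them. Ltb4r1 did not follow the sum, with r = 0.02 (exact permutation p = 0.958, adjusted p = 0.982), and -0.77 without those libraries. Its rho was -0.14 (exact permutation p = 0.752, adjusted p = 0.820). Without KO 1 and KO 2 the log2 change of Fpr1 was 0.06 ± 0.26, that of C5ar1 -0.33 ± 0.31 and that of Fpr2 -0.26 ± 0.24 (SE, edgeR adjusted p = 0.934, 0.640 and 0.620).

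Cd209a, a C-type lectin gene of dendritic cells and of a subset of Ly6Chigh monocytes, was high in the libraries where the formyl peptide receptors and C5ar1 were low. It had 168, 409, 277 and 172 CPM in WT 1 to 4, against 67.6, 47.3, 467 and 419 CPM for KO 1 to 4. The 4 libraries highest in Cd209a (KO 3, KO 4, WT 2 and WT 3) were the 4 lowest in Fpr1, Fpr2 and C5ar1. With C5ar1, r was -0.92 (exact permutation p = 0.00131, adjusted p = 0.0158 over the same 12 relations) and rho -0.79 (exact permutation p = 0.0279, adjusted p = 0.110), and r was -0.87 without the 2 libraries farthest from the median of Cd209a. With Fpr2, r was -0.80 (exact permutation p = 0.0162, adjusted p = 0.0389) and rho -0.81 (exact permutation p = 0.0218, adjusted p = 0.110), and r was -0.87 without them. With Fpr1, r was -0.89 (exact permutation p = 0.00573, adjusted p = 0.0229) and rho -0.74 (exact permutation p = 0.0458, adjusted p = 0.110), and r was -0.57 without them, so that this relation rests in part on those libraries. With the scarce Cmklr1, r was -0.82 (exact permutation p = 0.0145, adjusted p = 0.0389), and -0.89 without those libraries. Its rho was -0.69 (exact permutation p = 0.0694, adjusted p = 0.139). For Ltb4r1 and C3ar1, r was -0.45 and 0.01. KO 1 and KO 2, lowest in Cd209a, were also highest in the neutrophil marker sum, so that the relations to Cd209a and to the sum share those libraries. No rho passed after adjustment. Cd209a was singled out after its values were seen. Of its list, Dpp4 was likewise high in WT 2, KO 3 and KO 4 (31.7, 36.0 and 34.9 CPM). It was low in KO 1 and KO 2 (15.6 and 13.6 CPM), but lowest in WT 3 (10.2 CPM), where Cd209a was high. Flt3 had another pattern and lay between 11.4 and 17.8 CPM. Markers of type 1 conventional dendritic cells were near 0, with Xcr1 at most 0.186 and Clec9a at most 0.598 CPM in any library, and the 8 conventional dendritic cell markers summed to 1850 to 2550 CPM in WT and to 674, 386, 1670 and 1890 CPM in KO 1 to 4, most of it H2-Ab1. How much Cd209a-high cells had a part in the receptor levels was not tested.

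**Figure D4:**
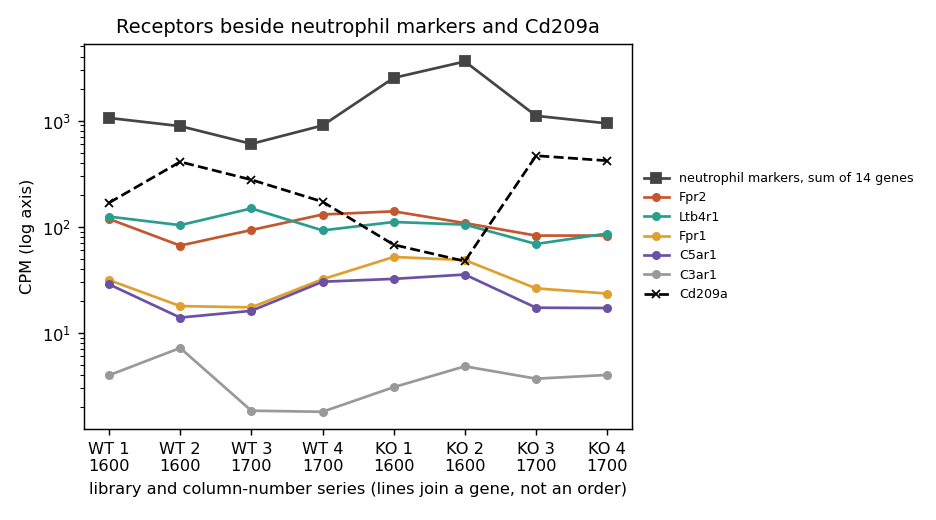
CPM (log axis) of 5 receptors, of the summed 14 neutrophil markers (squares) and of Cd209a (dashed) in the 8 libraries, with the column-number series under each library. Fpr1, Fpr2 and C5ar1 are low where Cd209a is high (WT 2, WT 3, KO 3 and KO 4), and the neutrophil marker sum peaks in KO 1 and KO 2.

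The genes most similar to each receptor over the 8 libraries were named by Pearson's r of log2 CPM, as a description of libraries that share depth, series and genotype. For Fpr1 they were Lrg1, a gene of neutrophil granules and of the acute-phase response (r = 0.987, rho = 0.95), Rccd1 (r = 0.981) and Raet1e (r = 0.971). For Fpr2 they were Cd93, a C-type lectin-like receptor of myeloid cells (r = 0.974, rho = 0.95), the ribosomal protein gene Rpl17 (r = 0.955) and Hdc, which encodes the histamine-forming enzyme (r = 0.955). Cd93 was also among the nearest for C5ar1 (r = 0.970), with Cd63-ps (r = 0.983) and the Fc receptor gene Fcgr4 (r = 0.971). The nearest for C3ar1 were Slc25a12, Tpp1 and Psmd2 (r = 0.969 to 0.955), and those for Ltb4r1 included Lman2 (r = 0.968) and Zfp688 (r = 0.966). For Cmklr1 they were Tra2a, Ap1m2 and Fcgr4 (r = 0.944 to 0.914).

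Of 17 other chemoattractant receptors listed, 9 had 0 counts in all 8 libraries, among them Gpr1, a further chemerin receptor, and Ptgdr2, a prostaglandin D2 receptor. The 6 that were tested had a median log2 change of -0.04, and 0 were called (edgeR). An unadjusted p under 0.05 was reached by 1 gene (edgeR), against 20.9% of all tested genes. That gene was Cysltr1, a receptor for cysteinyl leukotrienes, with 69.4 ± 15.6 and 83.5 ± 11.2 CPM in WT and KO (SD, n = 4 each; log2 change 0.35, edgeR adjusted p = 0.231). Gpr183, which guides cells along oxysterols, had 70.5 ± 40.2 and 67.7 ± 27.3 CPM, Gpr35 60.2 ± 16.3 and 53.3 ± 12.1 CPM, and Ccrl2, which binds chemerin without signalling, 34.2 ± 23.0 and 29.0 ± 9.18 CPM. Ltb4r2, the low-affinity leukotriene B4 receptor beside Ltb4r1, was below the filter, at 0.327 to 0.682 (WT) and 0.0579 to 0.322 CPM (KO).

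On the ligand side, 11 of 20 listed genes were tested and 0 passed (edgeR), with a median log2 change of 0.27. An unadjusted p under 0.05 was reached by 4 of the 11 (edgeR), against 20.9% of all tested genes. Anxa1, the gene of the Fpr2 ligand annexin A1, had 2090, 1620, 1470 and 1740 CPM in WT 1 to 4, against 2300, 2790, 2290 and 2450 CPM for KO 1 to 4. Every KO library was above every WT library, and the log2 change of 0.59 ± 0.13 missed the threshold narrowly (SE, edgeR adjusted p = 0.0522). Lta4h, the enzyme that makes leukotriene B4, was likewise without overlap, at 44.4 to 76.9 CPM in WT and 79.2 to 109 CPM in KO (log2 change 0.64, edgeR adjusted p = 0.0677). These were the 2 of the 11 tested genes whose genotypes did not overlap with KO higher, against 2.81% of all tested genes. Alox5ap, which helps 5-lipoxygenase, had 860 ± 71.7 and 870 ± 60.4 CPM, and Cyp4f18, which breaks down leukotriene B4, 504 ± 64.5 and 457 ± 95.1 CPM. Ptgr1, another enzyme gene of the list, had 78.1 ± 6.02 and 115 ± 39.7 CPM, with overlap (log2 change 0.64, edgeR adjusted p = 0.152). It was highest in KO 1 and KO 2 (137 and 159 CPM), and was 1 of the 4 with an unadjusted p under 0.05 (edgeR). Anxa2 had 2410 ± 142 and 2600 ± 76.6 CPM. C3, the source of C3a, had mean levels of 18.8 (WT) and 10.1 CPM (KO), with overlap (log2 change -0.82, edgeR adjusted p = 0.0677). The gene of chemerin, Rarres2, and Hc, which encodes C5, reached at most 0.0525 and 0.0545 CPM in any library. Camp, which encodes the Fpr2 ligand cathelicidin, stood at 62.4 (KO 1) and 39.3 CPM (KO 2) and at most 0.708 CPM elsewhere.

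Downstream of the receptors, 2 of 22 genes of G protein and beta-gamma signalling fell in KO and 0 rose (edgeR), against 0.838% and 0.223% of all tested genes, with a median log2 change of -0.12. In 5 of the 22 every KO library was below WT and in 2 above it, against 8.66% and 2.81% of all tested genes. Prex1, a Rac exchange factor activated by beta-gamma subunits, fell from 8.00, 3.78, 8.58 and 8.69 CPM in WT 1 to 4 to 2.14, 2.73, 2.98 and 2.26 CPM in KO 1 to 4. The genotypes did not overlap, and the log2 change was -1.46 ± 0.28 (SE, edgeR adjusted p = 0.0350). Gnb2, a G protein beta subunit, fell from 145 to 159 CPM in WT to 76.7 to 118 CPM in KO (log2 change -0.62 ± 0.13, SE, edgeR adjusted p = 0.0464). In the 1600 and 1700 series the changes were -1.11 ± 0.41 and -1.74 ± 0.27 for Prex1 (edgeR adjusted p = 0.194 and 0.0444) and -0.50 ± 0.19 and -0.76 ± 0.15 for Gnb2 (0.208 and 0.0573). Under the length and GC offsets the changes were -0.81 ± 0.26 for Prex1 and -0.30 ± 0.10 for Gnb2 and did not pass (edgeR adjusted p = 0.150 and 0.146). Prex1 also missed the threshold without WT 1, WT 3, WT 4, KO 1, KO 2 or KO 3, each in turn (edgeR adjusted p = 0.0537 to 0.142), and Gnb2 without WT 1, WT 3, WT 4, KO 2, KO 3 or KO 4 (0.0575 to 0.161). The other 20 included Gnai2, the main inhibitory alpha subunit of leukocytes, at 375 ± 73.3 and 397 ± 24.0 CPM, Gnb1 at 208 ± 17.0 and 207 ± 14.3 CPM, Gng5 at 672 ± 93.9 and 556 ± 28.6 CPM and Rac2 at 497 ± 77.2 and 422 ± 48.5 CPM (SD, n = 4 each).

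Of 11 tested desensitisation genes, which switch the receptors off, 0 were called (edgeR), with a median log2 change of -0.06. An unadjusted p under 0.05 was reached by 4 of the 11 (edgeR), against 20.9% of all tested genes. In 3 of the 11 every KO library was below WT, against 8.66% of all tested genes. These were the receptor kinase genes Grk3 (6.07 ± 0.992 and 2.65 ± 1.02 CPM, log2 change -1.12, edgeR adjusted p = 0.0569) and Grk6, and the arrestin gene Arrb1 (7.47 ± 1.14 and 4.92 ± 1.16 CPM, edgeR adjusted p = 0.174). Rgs2, a regulator that speeds G protein shut-off, had 1090 ± 273 and 1140 ± 140 CPM, Rgs19 153 ± 18.3 and 153 ± 22.4 CPM, Rgs18 116 ± 14.4 and 132 ± 22.7 CPM and Grk6 65.7 ± 5.75 and 52.6 ± 3.88 CPM (SD, n = 4 each). Of the 8 genes of the phagocyte NADPH oxidase and its Rac partners, which chemoattractants prime, 0 were called (edgeR; 0 had an unadjusted p under 0.05). Cyba had 3680 ± 570 and 2930 ± 516 CPM, Cybb, the catalytic subunit, 601 ± 228 and 702 ± 191 CPM and Rac1 890 ± 103 and 849 ± 105 CPM. Complement receptors and regulators of other families gave 0 calls among 6 tested (edgeR; 0 had an unadjusted p under 0.05). Among them Itgb2, the shared beta chain of the leukocyte integrins that bind complement fragment iC3b, had 332 ± 86.9 and 351 ± 15.1 CPM, Cr1l 258 ± 10.4 and 247 ± 28.9 CPM and C1qbp 29.7 ± 2.61 and 31.1 ± 3.82 CPM (SD, n = 4 each).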

How the data were processed

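RNA of sorted Ly6Chigh monocytes was primed with oligo-dT and amplified by template switching, per the labels' protocols, so that recovery can depend on transcript length and RNA quality. The authors deposited 1 table of raw counts. The submitters' processing notes list HISAT2 2.0.5, featureCounts 1.5.0-p3 and the GRCm38 build; which annotation and strand setting were used is not stated. Counts of PCR reads are not independent molecules, so that floors (3 counts) cover counting error only.

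Libraries were grouped by the genotype in their titles. Libraries of 1 genotype were not copies of each other (chi-square per degree of freedom 16.5 to 77.2 between pairs). The test was edgeR's robust quasi-likelihood fit (version 4.0.16, R 4.3.3) after filterByExpr and TMM scaling, Benjamini-Hochberg over 11222 genes at 0.05. CPM used library totals. Levels per length used merged exons of GENCODE M21. Single values, ratios (pseudocount 0.5) and correlations (log2 CPM, prior count 2) were tested by exact permutation. DESeq2 1.42.0, limma-voom (limma 3.58.1), offsets (mgcv 1.9.3), other normalizations, filters, covariates and left-out libraries were alternatives.

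The receptors and lists were chosen with earlier results of these data known. Named genes were the 7 receptors, and called members and the 4 most abundant of each pathway list. Added were the 3 most abundant of each marker list, as far as a comparison needs them, and the 3 genes most similar to each tested receptor. Camp, C3, Lta4h, Ptgr1, Hc, Rarres2, Ltb4r2, Gpr1, Ptgdr2, Grk3, Arrb1 and further markers are named outside this rule, after their values were seen. A few genes picked by this rule are left unreported. In a simulation of this comparison (11064 genes, drawn independently) edgeR found 67% of the 2-fold and 92% of the 4-fold changes, and 4.22% of its calls were false. The changed genes were picked at random from all tested genes, and no difference between the series was simulated. These shares therefore do not say how often a change of the receptors would be found.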

Additional observations from a re-analysis of the deposited data

Results flagged for a closer look

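Among 116 groups of 4 values, 7 held a library far from the other 3, where chance gives about 5.80. Of the receptor ratios, Fpr2 to C3ar1 counts stood high in KO 1 (45.5) and Fpr2 to Cmklr1 counts stood high in WT 3 (104.0). Cysltr1 was low in WT 3 (46.1 CPM) and Prex1 low in WT 2 (3.78 CPM), within its genotype. Summed plasmacytoid dendritic cell markers were low in KO 2 (89.8 CPM), NK cell markers high in WT 3 (1.05 CPM) and T cell markers low in WT 1 (0.436 CPM). No single receptor's CPM held such a library.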

How the results depend on the processing

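No receptor was called under any of the alternatives run for KO against WT, at an adjusted p of 0.10 included, for all 8 libraries; within the 1600 series 1 receptor (Fpr1) would pass at 0.10. The count over all tested genes, 119, was not stable: 244 with library totals alone, 742 with no filter, 784 with DESeq2 (325 higher and 459 lower), 0 with limma-voom (2371 at an unadjusted p under 0.05), 251 with the number series as covariate, 1 with offsets for length and GC, 7 when KO 1 and KO 2 were left out, 611 at an adjusted p of 0.10, and between 0 and 515 with 1 library left out. The interaction of genotype and series called 0 receptors with edgeR and 2 with DESeq2.

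The median log2 change of the receptors, 0.13, was 0.58 in the 1600 series, -0.45 in the 1700 series, -0.33 without KO 1 and KO 2 and -0.009 with length and GC offsets. Signs of single receptors turned as follows, where the cause was not tested. In the 1700 series Fpr1 was at -0.002, Fpr2 at -0.453 and C5ar1 at -0.444, and in the 1600 series C3ar1 was at -0.336, Ltb4r1 at 0.077 and Cmklr1 at 0.467. Without KO 1 and KO 2, Fpr2 was at -0.264 and C5ar1 at -0.326, and with length and GC offsets Fpr2 was at -0.184. With 1 library left out, Fpr2 lay between -0.086 and 0.246, C3ar1 between -0.042 and 0.688 and Cmklr1 between -0.321 and 0.145.

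The correlation of deviations from the genotype mean was -0.049 to 0.093 for same-numbered libraries and -0.147 to 0.129 for libraries of different numbers. With so few pairs it cannot decide whether the numbers pair the libraries. With the title number as replicate block 244 genes and 0 receptors were called, and Gnb2 did not pass (edgeR adjusted p = 0.0689). Neither Gnb2 nor Prex1 passed with limma-voom (adjusted p = 0.0857 and 0.0904) or without KO 1 and KO 2 (edgeR adjusted p = 0.0996 and 0.122). C5ar2 and Cmklr1 are limited by counts of at most 14 and 33 per library.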
